A study of Bos taurus with 16 samples.

Results

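The 8 genes described here encode the subunits of the chaperonin CCT, also called TRiC. They are TCP1 (XLOC_070610), CCT2 (XLOC_057352), CCT3 (XLOC_049983), CCT4 (XLOC_007793), CCT5 (XLOC_033738), CCT6A (XLOC_043085), CCT7 (XLOC_007620) and CCT8 (XLOC_000048). Their loci were chosen by gene name among 27393 loci, and each name had 1 locus. RNA of single bovine oocytes and embryos developed in vivo was amplified and sequenced, with 2 samples at each of 8 stages. The stages were mature oocytes (MII), embryos of 2, 4, 8 and 16 cells (2C, 4C, 8C and 16C), early morulae (EM), compact morulae (CM) and blastocysts (BL). MII, 2C and 4C lie before the main embryonic genome activation (EGA), which the study places between 4C and 8C, and the 5 later stages lie after it. No treatment was compared, and neither breed nor age of the animals is given in the labels.

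CCT is a cytosolic folding machine built of a pair of stacked rings. Each ring holds 1 copy of every subunit, so the complex needs all of the genes. ATP binding and hydrolysis close the chamber over an unfolded client, and the client folds inside. Actin and tubulin are its classical clients, and CDC20 and the WD-repeat G-protein beta subunits are others. Prefoldin delivers unfolded actin and tubulin to the ring, phosducin-like proteins act as its cochaperones, and the tubulin cofactors take over tubulin after folding. An early embryo depends on these clients for spindles and cell division.

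Values are normalised read counts, that is, reads of a locus divided by a size factor of its sample. They are not divided by gene length, so subunits are compared by how they change and not by level. Between 607672 and 3379426 reads were recovered per sample, and 3 reads, the smallest number taken as detectable, correspond to a normalised count between 1.09 and 5.40 depending on the sample. Every sample is a whole oocyte or embryo, so the number of cells that express a gene and the amount of RNA per cell cannot be told apart. The oocyte genes ZP2, ZP4, GDF9 and H1FOO were present in both MII oocytes and ZP3 had 1 and 9 reads, whereas BMP15 is listed at 0 in every sample. Of 5 trophectoderm genes, CDX2 is listed at 0 in blastocysts and the other 4 had reads there, with a summed count of 1093 to 1125 in BL, 30.5 to 46.8 in MII and at most 322 in the other stages. The summed count of 9 cumulus cell genes was 112 to 399 before EGA and 0 to 44.7 after it. TNFAIP6, AMH and VIM were at 0 in every sample before EGA, and most of the sum was HAS2. The cumulus sum thus moved with the period, and so did the oocyte genes, whose summed count was 3792 to 24368 before EGA and 5.07 to 1669 after it. The 1669 was 8C replicate 2, mostly H1FOO at 1606, and the other 9 samples after EGA reached at most 56.5. The part of oocyte, cumulus and trophectoderm RNA in the changes below was not tested.

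Before EGA the chaperonin reads were almost all from one subunit, and after it reads of all subunits were present. TCP1 fell, CCT4 rose from few reads, CCT6A had reads only after EGA, and the other 5 subunits rose by smaller amounts. The test was limma on log2 of the normalised count plus 1, adjusted by the Benjamini-Hochberg method over all loci, and counts below refer to an adjusted p under 0.05. In the 10 samples after EGA against the 6 before it, 8 of 8 subunits passed, 7 of them higher and 1 lower. Among all 6910 loci tested 66.8% passed, 36.9% higher and 29.9% lower after EGA. Passing this test therefore does not single the subunits out. The median log2 change of the subunits was 1.18, also with CCT6A at the bound that its zero counts allow, against 0.23 for all loci. CCT6A reached the read level required for testing in no sample before EGA, and CCT4 in 3 of 6, so these genes entered the test through the later samples.

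**Figure D1:**
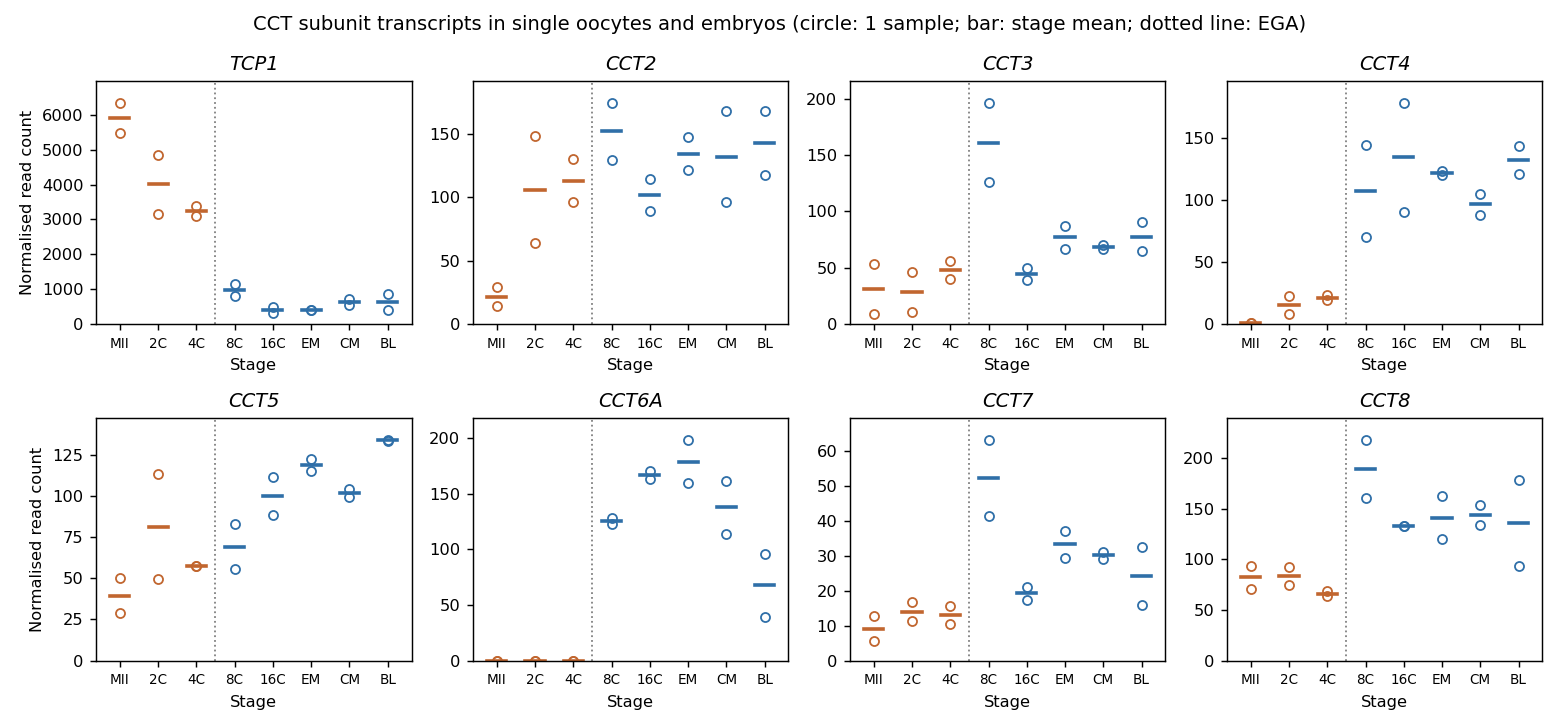
Normalised read count (vertical axes, each from 0) of the 8 subunits by stage; circles are single samples, bars the means of 2 samples, and the dotted line marks EGA. TCP1 lies between 3113 and 6340 before EGA and between 323 and 1156 after it, whereas CCT6A is at 0 in all samples before EGA and between 39.6 and 198 after it.

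TCP1 encodes the alpha subunit, after which the complex was first named. It had 5483 and 6340 normalised reads in MII oocytes, 4862 and 3167 in 2C, and 3113 and 3380 in 4C embryos (replicates 1 and 2). In 8C embryos it had 816 and 1156, in 16C 490 and 323, and in EM 409.6 and 406. In CM it had 552 and 720.5 and in BL 862 and 396. All 6 samples before EGA lay above all 10 after it.

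The mean of TCP1 was 4391 ± 1369 (SD, n = 6) before EGA and 613 ± 267 (SD, n = 10) after it, a level 7.16-fold higher before. The log2 change was -2.90 (SE 0.35, adjusted p = 3.7e-07, limma). The highest sample after EGA, 8C replicate 2 with 1156, also had the highest summed count of the oocyte genes after EGA. The other 9 lay between 323 and 862, and without it the log2 change was -3.01 (adjusted p = 1.7e-07, limma). Ranked by normalised count within a sample, TCP1 was between place 31 and 60 before EGA and between 156 and 402 after it. Among all loci, 53 had a mean before EGA at least as high as TCP1, itself included, and 35 of these had less than 20% of that mean after EGA. In this respect the fall of TCP1 was shared by most loci of its level. In the gene table of assembly ARS-UCD2.0, TCP1 overlaps ACAT2, a gene of acetyl-CoA metabolism, and no other member overlaps a protein-coding gene. Whether strand was used in counting is not given in the sources used here, and without it reads of overlapping genes cannot be told apart. ACAT2 moved the other way, from 203 ± 87.0 (SD, n = 6) to 1418 ± 716 (SD, n = 10), with a log2 change of 2.79 (SE 0.38, adjusted p = 2.0e-06, limma).

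CCT6A encodes the zeta subunit in its widely expressed form. It is listed at 0 in each of the 6 samples before EGA, with 0 reads in all. The 8C embryos had 122.5 and 128 normalised reads, from 68 and 112 reads. In 16C embryos it had 169.8 and 163, and in EM 159 and 198. In CM it had 114 and 161, and in BL 95.4 and 39.6. No sample of one period overlapped with the other.

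A listed 0 can be an absent transcript or reads that were not assigned to the locus, and which of these applies to CCT6A cannot be told from the values. BMP15, TUBB, TUBB4B, VBP1 and RUVBL2 are listed at 0 in every sample. If the zeros are read as counts, then set against 3 reads in each library before EGA the mean of 135 ± 45.5 (SD, n = 10) after EGA was at least 55.4-fold higher. The same bound for 8C against 4C was at least 48.2-fold. The limma test of the periods gave an adjusted p of 3.7e-12, and the fitted log2 change of 6.98 depends on the pseudocount. CCT6A was kept for this test only by its reads after EGA, so the p-value adds no support to the difference. A count of 0 before EGA was unusual for a locus of this later level. Of 938 loci with a mean after EGA at least as high as that of CCT6A, 3 (0.32%) had no read in any sample before it, namely CCT6A, FOLR1 and the unnamed locus CUFF.22097.1. These names were looked up after the values were seen. SUMF2, its neighbour in the gene table, also had no reads before EGA and had up to 20.6 normalised reads after it. PSPH, the neighbour on the other side, went from 73.1 ± 35.2 (SD, n = 6) to 5.48 ± 4.23 (SD, n = 10), a log2 change of -3.60 (SE 0.44, adjusted p = 4.1e-07, limma). The closest paralog, CCT6B, which is known from testis, had no more than 12 reads in any sample, and 7 in all samples before EGA.

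CCT4, the delta subunit, was the other gene that was near the detection limit in oocytes. Each MII oocyte held 1 read of it. The 2C embryos had 7.91 and 22.6 normalised reads and the 4C embryos 23.1 and 19.5. After EGA the counts were 70.3 and 144.5 in 8C, 90.4 and 178 in 16C, 119.8 and 123 in EM, 87.5 and 105 in CM, and 143 and 120.4 in BL. All samples after EGA lay above all samples before it, and the oocytes were the lowest of all.

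The mean of CCT4 went from 12.5 ± 10.5 (SD, n = 6) to 118 ± 31.8 (SD, n = 10), a log2 change of 3.74 (SE 0.52, adjusted p = 2.1e-06, limma). TCP1, CCT4 and CCT6A were the 3 subunits whose periods did not overlap, 3 of 8 against 30% of all loci tested.

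The other subunits changed less, and their periods overlapped. CCT8, the theta subunit, ranged from 63.4 to 93.6 before EGA and from 93.5 to 218 after it, so that its periods overlapped by a margin of a single pair of samples. Its log2 change was 0.91 (SE 0.27, adjusted p = 0.0057, limma). CCT7, the eta subunit, had 5.54 to 16.6 before and 15.8 to 63.1 after EGA, with a log2 change of 1.29 (SE 0.37, adjusted p = 0.0044, limma). It had 334 reads in the 10 samples after EGA.

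CCT3, the gamma subunit, had 8.51 to 56.3 before and 39.2 to 196 after EGA, with a log2 change of 1.40 (SE 0.44, adjusted p = 0.0082, limma). CCT2, the beta subunit, had 13.8 to 148 before and 89.3 to 174 after it, with a log2 change of 1.08 (SE 0.42, adjusted p = 0.028, limma). CCT5, the epsilon subunit, had 28.6 to 113 before and 55.9 to 134 after, with a log2 change of 0.89 (SE 0.32, adjusted p = 0.018, limma). For CCT2 and CCT5 the call rested on the method. In edgeR on the recovered reads the adjusted p was 0.264 for CCT2 and 0.0873 for CCT5, and CCT2 also missed the threshold in DESeq2 (adjusted p = 0.111). Without MII replicate 1 neither passed (adjusted p = 0.0838 and 0.0603, limma), and without MII replicate 2 CCT2 did not (adjusted p = 0.107, limma). CCT2 also missed it without the 8C embryos (adjusted p = 0.0525, limma).

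**Figure D2:**
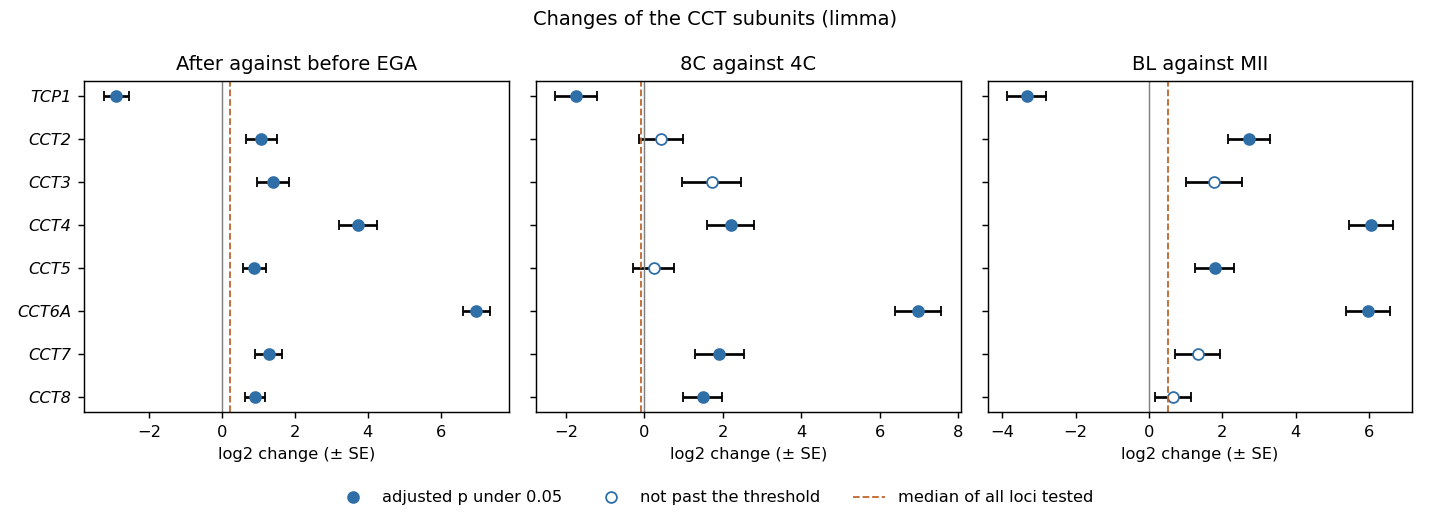
Log2 change with its standard error (horizontal axes) of each subunit after against before EGA (10 against 6 samples), in 8C against 4C and in BL against MII (2 against 2 samples, spread from all stages); filled points passed the threshold and the dashed line is the median of all loci. TCP1 lies left of 0 in all panels, at -2.90, -1.74 and -3.33, and all other subunits lie right of 0.

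Because changes are relative to the rest of the RNA in a sample, the scaling matters. Scaled by total reads, the median of all loci at EGA moved from 0.23 to 0.66, and the subunits moved with it, TCP1 to -2.41 and CCT5 to 1.36. Relative to the median of all loci, TCP1 was at -3.12 with the authors' scaling and -3.08 with total reads, and CCT5 at 0.66 and 0.69. All 8 directions and calls held under both and under TMM factors.

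The balance of the subunits does not depend on the scaling, since it is taken within a sample. As shares are of reads and not of molecules, only their change is read here. TCP1 held 93.3 ± 3.24% (SD, n = 6) of the summed reads of the 8 subunits before EGA, between 89.6% in 2C replicate 2 and 97.2% in MII replicate 2. After EGA it held 43.3 ± 8.78% (SD, n = 10), between 29.5% in 16C replicate 2 and 54.0% in 8C replicate 2. The step was already present in 8C embryos, with 52.9% and 54.0%, against 90.8% and 91.3% in 4C.

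The sum of all 8 subunits fell from a mean of 4668 ± 1298 (SD, n = 6) to 1370.1 ± 349 (SD, n = 10). The sum of the other 7 went the other way, from 277 ± 76.6 to 757 ± 113, and its highest sample before EGA (369) was below its lowest after EGA (610.0). These sums are descriptions and were not tested. Among the other 7, the share of CCT8 was 30.4 ± 12.3% (SD, n = 6) before EGA and 19.5 ± 2.81% (SD, n = 10) after it. CCT2 had 26.1 ± 13.3% and 17.4 ± 2.51%, and CCT6A had 0% and 17.9 ± 6.16%. The share of CCT7 among the 7 was 4.52 ± 1.71% before and 4.18 ± 1.76% after EGA, a difference within its spread. CCT4 held a mean of 3.88% of the 7 before EGA (0.488% to 7.27%, n = 6) and 15.6% after it (9.65% to 23.1%, n = 10), without overlap of the samples.

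**Figure D3:**
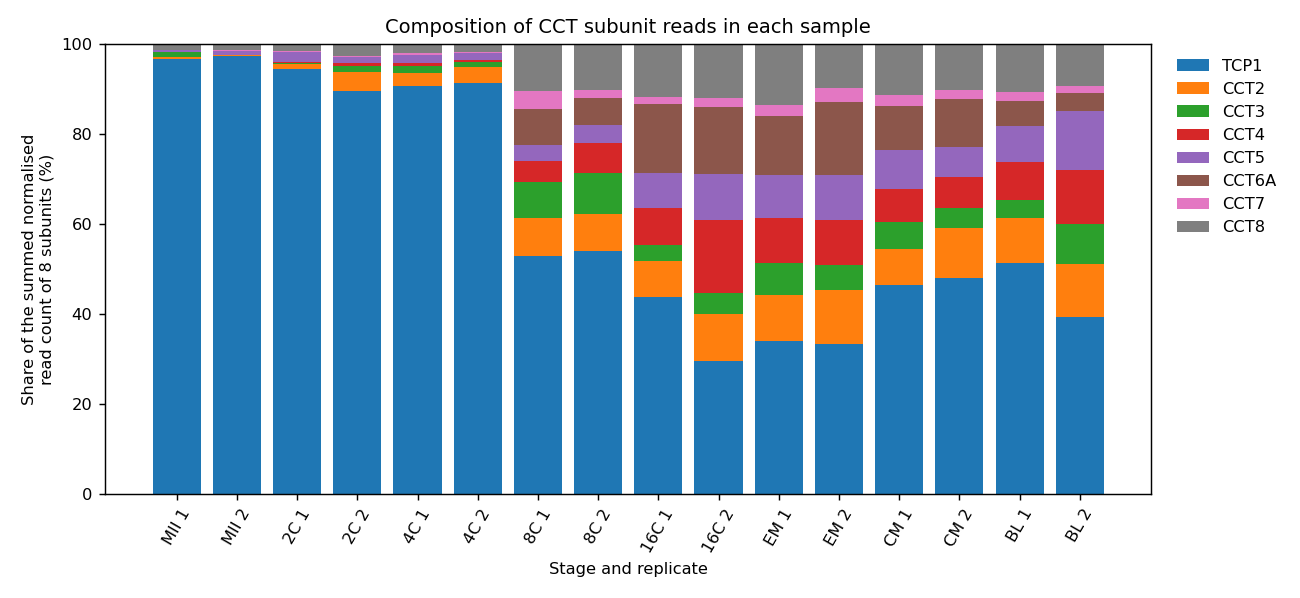
Share (vertical axis, percent) of each subunit in the summed normalised reads of the 8 subunits, 1 bar per sample in order of stage. TCP1 takes 89.6% to 97.2% of the bars up to 4C and 29.5% to 54.0% from 8C on, and CCT6A appears from 8C on.

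Step by step, most calls fell between 4C and 8C, and CCT4 also passed from MII to 2C. In 8C against 4C, 5 of 8 subunits passed, 4 higher and 1 lower, against 36.8% of the 9670 loci tested in the model of 8 stages (17.7% higher and 19.1% lower). TCP1 fell by 1.74 on the log2 scale (SE 0.54, adjusted p = 0.020, limma). CCT6A, CCT4, CCT7 and CCT8 rose, the last 3 by 2.20 (SE 0.60, adjusted p = 0.011), 1.91 (SE 0.62, adjusted p = 0.027) and 1.48 (SE 0.49, adjusted p = 0.027; all limma). CCT3 had a difference of 1.71 (SE 0.76, adjusted p = 0.091, limma) and did not pass, although both 8C embryos lay above both 4C embryos. CCT2 and CCT5 differed by 0.43 and 0.24, less than their standard errors of 0.57 and 0.53. Whether these subunits passed depended on single embryos, whereas the log2 changes kept their direction. With any 1 sample left out, TCP1 lay between -1.99 and -1.49 and CCT4 between 1.68 and 2.71. CCT7 then lay between 1.61 and 2.21 and CCT8 between 1.26 and 1.70. Without 4C replicate 2, CCT6A was the 1 subunit still called, without 4C replicate 1 there were 2, and without either 8C replicate 3. Over all loci the calls also fell, from 3560 of 9670 to 1935 of 10920 without 4C replicate 2, 2003 of 10948 without 4C replicate 1 and 2470 of 11192 without 8C replicate 1, whereas without 8C replicate 2 there were 3844 of 11112. TCP1 missed the threshold in edgeR as well (adjusted p = 0.0652).

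From MII to 2C, CCT4 was the 1 of 8 subunits that passed, against 1.42% of all loci (1.2% higher). Its 72 reads in 2C, 62 of them in replicate 2, against 2 in MII give a ratio of 18.2 (95% exact counting interval 4.86 to 153). The interval covers counting error only, since reads of amplified RNA are not independent molecules, and 1 read per oocyte is under the 3 reads taken as detectable. The log2 change was 2.86 (SE 0.60, adjusted p = 0.030, limma), and between 2.16 and 3.57 with any 1 sample left out. The call was lost when any 1 of 11 samples was left out, among them both MII oocytes and 2C replicate 2 (adjusted p = 0.0778, 0.126 and 0.204, limma), and in edgeR (adjusted p = 0.0526). CCT2 had a difference of 2.21 (SE 0.57, adjusted p = 0.061, limma), from 29.5 and 13.8 in MII to 64.1 and 148 in 2C. For TCP1 the difference was -0.59 (SE 0.54, adjusted p = 0.658, limma), although both oocytes lay above both 2C embryos.

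No subunit passed in the other steps. In 4C against 2C, EM against 16C, CM against EM and BL against CM, 0 of 8 passed in limma, edgeR and DESeq2, and 0 had an unadjusted p under 0.05. Over all loci limma called 0%, 0.103%, 0% and 4.42% in these steps. Of the 9670 loci, 441, 1060, 485 and 1750 had an unadjusted p under 0.05 in them (limma). In 16C against 8C, 0 of 8 passed in the same 3 tools, against 0.858% of all loci, and TCP1, CCT3 and CCT7 had an unadjusted p under 0.05 in limma (3 of 8, all lower in 16C). In edgeR this was 1 (CCT3) and in DESeq2 3. Among all 9670 loci, 1673 had such a p in limma, 1361 in edgeR and 1282 in DESeq2. Neighbouring steps share the samples of a stage.

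Across all 8 stages, 5 of 8 subunits had a stage effect (TCP1, CCT2, CCT4, CCT6A and CCT7), against 66.7% of all loci. Scaled by total reads or in DESeq2 the number was 8, and 6687 and 5940 of the 9670 loci passed there, against 6449. The adjusted p was 0.0506 for CCT3, 0.0809 for CCT5 and 0.124 for CCT8 (limma). In BL against MII, 5 of 8 passed (TCP1 lower, CCT2, CCT4, CCT5 and CCT6A higher), against 50.8% of all loci (30.6% higher and 20.2% lower), and scaled by total reads 8 passed. Over all loci that scaling called 3781 higher and 1193 lower, against 2956 and 1952, and the median log2 change moved from 0.51 to 1.34. Without MII replicate 1, CCT5 was lost (adjusted p = 0.0863, limma). The 217 reads of CCT4 in BL against 2 in MII give a ratio of 136 (95% exact counting interval 37.1 to 1128), under the same limits.

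The order of the stages differed between the subunits. CCT2, CCT3, CCT7 and CCT8 had their highest mean in 8C, at 152 ± 31.5, 161 ± 49.5, 52.2 ± 15.4 and 189 ± 40.7 (SD, n = 2). For CCT3 and CCT7 both 8C embryos lay above all embryos of the other stages. For CCT8 8C replicate 1 (160.3) lay below EM replicate 1 (162) and BL replicate 1 (179). For CCT2 8C replicate 1 (129.72) lay below replicate 2 of 2C (148.2), 4C (129.95), EM (147.8) and CM (167.9). It also lay below BL replicate 1 (168.4). CCT5 had its highest mean in BL at 133.5 ± 0.58, above EM at 119 ± 5.10 and CM at 102 ± 3.34 (SD, n = 2) without overlap. CCT6A was highest in EM at 179 ± 27.6, not apart from 16C at 167 ± 4.59, and after EGA it was lowest in BL at 67.5 ± 39.4 (SD, n = 2). CCT4 was highest in 16C at 134 ± 61.9, with BL, EM, 8C and CM following without a gap between neighbours. TCP1 followed the order MII, 2C, 4C, 8C, CM, BL, EM and 16C, with gaps after MII, 4C and 8C.

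Within the 10 samples after EGA, the log2 levels of the subunits were only loosely related. The 28 pairs of subunits had Pearson correlations from -0.59 to 0.78 with a median of 0.20, and 17 were positive. The samples share library and stage, so these values are descriptions.

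Genes listed beside the subunits moved in both directions at EGA. The lists held cochaperones, clients, relatives of the subunits, the mitochondrial chaperonin, the R2TP group and heat shock factors. Of these 69 genes, all found by name, 40 had enough reads to be tested, and 17 were higher and 16 lower after EGA (36.9% and 29.9% of all loci were). Of the 17, 3 (PDCL3, PIH1D1 and RUVBL1) were under the read level required for testing in every sample before EGA, so they entered the test through the later samples. Of the 40, 1 (STRAP, not called) turned its direction when scaled by total reads, and 5 of the 33 calls were lost (GNB1, PFDN4, PDRG1, GNB2 and VHL). In edgeR the calls of UXT, PDRG1, CCNE1, TBCA and HSF1 were lost.

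Prefoldin had 1 higher and 1 lower gene among 4 tested, with a median log2 change of 0.74. Over all loci 36.9% were higher and 29.9% lower, with a median of 0.23. PFDN6 rose from 5.39 ± 4.12 (SD, n = 6) to 28.4 ± 29.5 (SD, n = 10), a log2 change of 1.95 (adjusted p = 0.0055, limma). Its 8C embryos, at 5.40 and 10.3, lay within its range before EGA (0.73 to 12.7). The blastocysts were highest, at 58.8 and 99.8. PFDN6 reached the read level required for testing in 1 of 6 samples before EGA, so it entered the test through the later samples. PFDN4 had 22.0 ± 13.3 before and 8.95 ± 6.09 after (log2 change -1.22, adjusted p = 0.028, limma). PFDN1 and PFDN2 did not pass, at 0.69 and 0.79 (adjusted p = 0.283 and 0.118, limma). PFDN5 was too low to be tested, with 35 reads before EGA and 131 after it, and VBP1 is listed at 0 in every sample. Of the phosducin-like cochaperones, PDCL3 was higher after EGA (log2 change 2.93, adjusted p = 3.8e-06, limma) and TXNDC9 lower (-1.93, adjusted p = 7.0e-04, limma). As said above, PDCL3 entered the test only through the later samples.

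The mitochondrial chaperonin HSPD1 and its lid HSPE1 both rose. HSPD1 went from 22.9 ± 14.8 (SD, n = 6) to 183 ± 66.2 (SD, n = 10), with no overlap (log2 change 3.18, adjusted p = 7.9e-07, limma). HSPE1 went from 68.5 ± 22.2 to 179 ± 70.5 (log2 change 1.30, adjusted p = 0.0026, limma).

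The tubulin cofactors were lower for 4 of 6 tested and higher for 1, with a median log2 change of -1.66. Of all loci 29.9% were lower and 36.9% higher, with a median of 0.23. TBCE, TBCEL and TBCD fell by 2.70, 2.25 and 1.84 on the log2 scale (adjusted p = 3.9e-05, 0.0022 and 0.0078, limma). TBCEL and TBCD each reached the read level required for testing in 3 of 10 samples after EGA. Of 10 actin and tubulin genes tested, 5 were higher and 4 lower (median 0.31). The largest changes were those of TUBG2 (-4.86), TUBE1 (-4.51) and TUBB2B (4.37; adjusted p = 4.4e-06, 3.3e-07 and 4.2e-07, limma). TUBG2 and TUBE1 each reached the read level required for testing in 2 of 10 samples after EGA, and TUBB2B in 2 of 6 before it. These 3 genes thus entered the test mainly through the period in which they were high. Reads of near-identical tubulin and actin genes can be split between copies, and TUBB and TUBB4B are listed at 0 in every sample.

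Of 9 other clients tested 2 were higher and 4 lower (median -0.72), against 36.9% higher and 29.9% lower over all loci (median 0.23). STAT3 fell by 3.57 on the log2 scale (adjusted p = 3.1e-07, limma), and GNB2 and VHL by 1.60 and 1.54 (adjusted p = 0.021 and 0.023, limma). CDC20 did not pass (log2 change 0.82, adjusted p = 0.163, limma). In the prefoldin-like and R2TP group, which assembles larger complexes, 4 of 6 tested were higher and 2 lower (median 1.93). PIH1D1, RUVBL1 and URI1 rose by 4.57, 2.65 and 2.24 (adjusted p = 4.0e-08, 1.1e-04 and 6.8e-04, limma), PIH1D1 from 5 reads in all samples before EGA. PIH1D1 and RUVBL1 reached the read level required for testing in 0 of 6 samples before EGA, and URI1 in 2 of 6. All 3 thus entered the test through the later samples. The heat shock factor HSF1 rose by 1.44 (adjusted p = 0.022, limma), and HSF2 was too low to be tested. RUVBL2, the partner of RUVBL1, is listed at 0 in every sample.

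**Figure D4:**
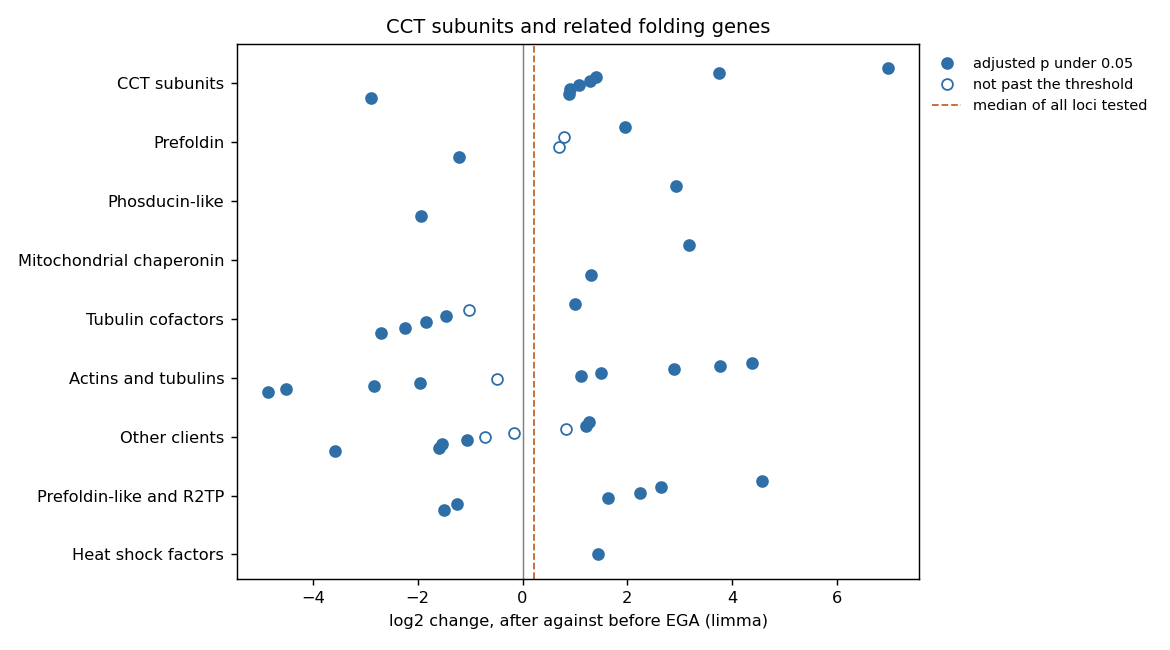
Log2 change after against before EGA (horizontal axis) of every tested gene in each group; filled points passed the threshold, and the dashed line is the median of all loci at 0.23. Every group with over 2 tested genes has points on both sides of 0, and of the CCT subunits TCP1 alone lies left of it.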

How the data were processed

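RNA was measured in single bovine oocytes and embryos, 16 samples in 8 stages, mapped by their titles. Per the labels, total RNA was amplified over several rounds and sequenced as SOLiD libraries. The submitters' processing notes name cutadapt, FastQC, TopHat, Cufflinks and HTSeq. Genome build and versions are not given in the sources used here. The deposited values are a signal, namely counts that the authors scaled with 1 size factor per sample. Dividing by the smallest non-zero value of the sample gave whole numbers for 100% of values (within 0.001), and these were used as the reads. Between 607672 and 3379426 reads per sample were found, and limits of 3 reads cover counting error only.

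Limma 3.58.1 (R 4.3.3, trend) was run on log2 of the value with a pseudocount of 1, which understates changes of low genes, on loci kept by filterByExpr. There were 6910 loci for the 2 periods and 9670 for the 8 stages. Adjustment was by Benjamini-Hochberg over all loci at 0.05. EdgeR 4.0.16 and DESeq2 1.42.0 on the recovered reads were alternatives, as were other scalings, pseudocounts (0.5 and 5), no filter, summed loci, a replicate block, each sample left out, no 8C samples and a mean of stage means. For the periods, edgeR called 4393 loci, limma 4619. Samples with the same number are different embryos and did not deviate together (1 of 28 correlations above 0.1), so numbers are not pairs. Nothing says whether embryos of a stage share a donor, so p-values measure only the spread between these samples.

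The subunits and gene lists were chosen with earlier results of these data known. Named are all subunits, prefoldin and the mitochondrial chaperonin, and up to 3 called genes with the largest change of each other list. Genes named as lost calls, untested, unpassed or listed at 0, marker genes, and the neighbours of TCP1 and CCT6A, go beyond that rule and were named after their values were seen. Python 3.11.15 was used for summaries. No sequences are shown.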

Additional observations from a re-analysis of the deposited data

Results flagged for a closer look

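CCT6A in blastocyst replicate 2 had 39.6 normalised reads, from 25 reads, which stands apart from the other 9 samples after EGA. On the log2 scale its gap to the next sample was 0.543 of the range of all 10. The other blastocyst had 95.4. Of 15 groups of samples examined for a value that stands apart, this was the 1 flagged. How often chance alone gives such a value was not tested, so chance is not excluded. The cause was not tested.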

How the results depend on the processing

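Passing the threshold after against before EGA were 8 subunits, 6 to 8 when a sample was left out. Across all settings TCP1, CCT3, CCT4, CCT6A, CCT7 and CCT8 kept call and direction, with TCP1 between -3.09 and -2.41. CCT6A had 0 reads before EGA and was kept for testing in each setting by its later samples. The stage effect counted 5 subunits (4 to 7 with a sample left out), and 8 scaled by total reads and 8 in DESeq2. From MII to 2C the count was 1 (0 to 2 with a sample left out), with 2 scaled by total reads, 0 with a pseudocount of 5, 0 in edgeR and 2 in DESeq2, and over all loci 137 passed, 546 scaled by total reads (536 higher, 10 lower, against 116 and 21), 133 with a pseudocount of 5, 44 in edgeR and 360 in DESeq2. In 8C against 4C it was 5 (1 to 6 with a sample left out, where 1935 to 3844 of all loci passed). In BL against MII it was 5 (5 to 6), and 8 scaled by total reads. The difference of CCT5 in 8C against 4C, which never passed, turned to -0.039 without 8C replicate 2 (-0.039 to 0.52 with a sample left out). With the replicate number as a block the counts were 8 at EGA, 5 for the stage effect, 5 in 8C against 4C and 5 in BL against MII, and no other count changed. Where a stage was left with 1 sample, it was assumed to vary like the others. Over all loci, 4619 passed at EGA and 7075 with no filter, in which 18318 loci were tested. Beyond construction, the causes were not tested. CCT4 in oocytes rested on 2 reads, in libraries of 2256671 and 2281896 reads.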

Other observations

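The named loci whose log2 levels over the 16 samples were closest to the mean standardised profile of the subunits were EIF3D, EIF6, GRB2, EEF1D and TUFM, with Pearson correlations between 0.96 and 0.98. EIF3D, EIF6, EEF1D and TUFM serve translation, and GRB2 is an adaptor of receptor signalling. EIF3D had 4.14 ± 3.50 normalised reads (SD, n = 6) before EGA and 81.0 ± 33.1 (SD, n = 10) after it, and EEF1D 4.13 ± 3.03 and 127 ± 50.5. The correlations span 2 periods of unlike level and shared libraries and are descriptions. Against the same profile CCT4 had 0.94, CCT5 had 0.69 and TCP1 had -0.81, although each is part of it.

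The chaperonin-like relatives MKKS, BBS10 and BBS12, which act at the cilium base, were too low to be tested. MKKS had 13 reads in all samples before EGA and 98 after it, BBS10 had 1 and 10, and BBS12 had 57 and 33. CCT8L2, a relative of CCT8, had 1 read in all samples.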
